A study of Gallus gallus with 41 samples.

Results

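Axon guidance ligands and receptors are the cell surface and secreted proteins that steer a growing axon. They were chosen here by gene symbol alone and comprise the semaphorins, plexins, neuropilins, EPH receptors, ephrins, SLITs, ROBOs, netrins and UNC5 receptors. The rule took 142 of 38535 probe sets, which stood for 56 of 13009 named genes. There were 17 semaphorins, 7 plexins, 2 neuropilins, 8 EPHA and 4 EPHB receptors, 2 A-class and 2 B-class ephrins, 3 SLITs, 3 ROBOs, 4 netrins and 3 UNC5 receptors. UNC50 also matched by its letters. It encodes a Golgi membrane protein and is no guidance receptor, so 55 genes belong to the families by function. DCC, EFNA3, EFNA6, EPHB4, PLXNA3 and ROBO3 were not analysed here. Where several probe sets carried the same symbol, as for 35 of the genes, the one with the highest mean log2 signal over all cells, before any floor, stood for the gene. Levels and counts given for a gene are those of this probe set unless another is named. For 9 genes (SEMA5A, SEMA7A, PLXNA4, PLXNB2, NRP1, EPHA6, EFNB1, ROBO1 and UNC5B) another probe set had the higher mean once low signals were set to the floor described below, and its counts are given beside the first.

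Each array held the amplified poly(A) RNA of 1 cell drawn by pipette from a papain-dissociated, uncultured chick retina. There were 41 cells, with 6 from embryonic day 3 (E3), 3 from E4, 5 from E5, 10 from E6, 1 from E7, 6 from E9, 8 from E14 and 2 from E15. The labels give no strain, treatment or sex and name no embryo, so the cells of an age counted as 1 sample and their spread entered no test. Values are log2 MAS5 signals, with a floor at log2 5.0, the middle value of the deposited table. A gene counted as detected at or above the 80th percentile of its array, which lay between 5.47 and 9.81, and as strong at a signal of 10 or more. Array background was the 95th percentile of 744 probe sets not designed on chicken genes. It averaged 6.59 at E3, 6.20 at E5, 5.87 at E9 and 6.56 at E14. The detection threshold averaged 6.37, 5.93, 6.54 and 6.52 in that order. A detected signal could thus lie within background, and the threshold was stricter against background at E9 than at E3, E5 or E14.

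In the developing retina, ganglion cells send axons across the inner surface to the optic nerve head and on to the brain. Semaphorins act through plexins, the secreted class together with neuropilins. SLITs repel axons through ROBO receptors. Ephrins and EPH receptors are membrane-bound partners known in chick for the retinotectal map, and netrin-1 attracts through DCC or repels through UNC5 receptors.

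The cells of an age were of unlike kinds. STMN2, a tubulin-binding protein of growing neurons, was strong in 0 of 6 cells from E3, 0 of 3 from E4 and 3 of 5 from E5. It was strong in 10 of 10 cells from E6, 6 of 6 from E9 and 8 of 8 from E14. E5 replicates 4 and 5 and the E7 cell lacked it and had cell cycle list means of 10.5, 11.8 and 12.9, against 5.04 to 6.24 in the other E5 cells. STMN2 was 1 of 14 measured neuron genes, which did not all go with it. NEFL, NEFM, ELAVL4, RBPMS2 and TUBB3 were detected in every cell of E6, E9 and E14. TUBB3 was also detected in 4 of 6 E3 cells. DCX was detected in 3 of 3 E4 cells, 5 of 5 E5 cells and the E7 cell. At E9 and E14, ISL1 was detected in 3 of 6 and 3 of 8 cells, and ATOH7 in 0 of both. At E3 the 11 measured markers of retinal progenitors were mixed. NES was strong in 6 of 6 cells and VIM in 5, but both are also made outside the retina. PAX6 was strong in 2 of 6 and CCND1 in 1. The other 7 were strong in 0 of 6, although SIX6 was detected in 6 and NOTCH1 in 5. SIX3, HES5 and FABP7, among these 7, were each strong in 3 of 3 cells at E4. E3 replicates 4 and 6 detected every measured erythroid gene. Of the markers of other tissues, 5 of 9 measured for pigment epithelium (MITF, PMEL, RPE65, TYR, TYRP1), 3 of 7 for microglia (C1QB, PTPRC, SPI1) and 6 of 9 for vessels and mesenchyme (among them CDH5 and PECAM1) were strong in 0 cells. The others on these lists were each strong in at most 1, 2 and 4 cells. Detection was wider for some. COL1A1 was detected in 40 cells, ESAM in 37, PDGFRB in 28 and COL1A2 in 27. The rest of the vessel and mesenchyme list was detected in at most 15. COL1A1 was strong in 2 of 6 cells at E3 and in both E15 cells. BEST1 was detected in 21 cells and MLANA in 20, other pigment markers in at most 6 and microglia markers in at most 10. Of 7 lens genes, 4 were strong in some cell, and the crystallin CRYBA4 was strong in 14 cells and detected in 10 of 10 at E6. Array medians were 6.82 to 7.87 for all cells of E4 and E15 and for E6 replicate 7, and 3.90 to 5.50 for the other 35. The first 6 are called arrays of high background. The title of E6 replicate 1 says E6 and its source name E5, and the title was followed.

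ROBO2, a SLIT receptor of retinal ganglion cell axons in mouse, was the member strong in the most cells, 29 of 41. At E3 its signal had its lowest value and its median at the floor and a highest of 6.58. The E4 cells read 9.40, 7.08 and 8.95, below their array backgrounds of 9.49, 8.02 and 9.43. The E5 cells read 12.92, 15.58, 14.03, 5.97 and 12.90. No E3 or E4 cell was strong, and 4 of 5 E5 cells were. At E6 the signal ran from 8.21 through a median of 14.60 to 16.89, and at E9 from 13.49 through 14.26 to 14.85. The E7 cell read 10.95, and the E14 cells ran from 11.01 through 13.52 to 15.05. The lowest E9 and E14 values lay above the highest E3 value. The 2 E15 cells split, at 15.46 and 5.99. Detection went from 0 of 6 cells at E3 (exact 95% interval up to 45.9%) to 10 of 10 at E6 (from 69.2%) and 8 of 8 at E14 (from 63.1%). A second ROBO2 probe set was strong in 28 cells, each of them among the 29. The other 3 ROBO2 probe sets were strong in 8, 6 and 0 cells, all within those 29.

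**Figure D1:**
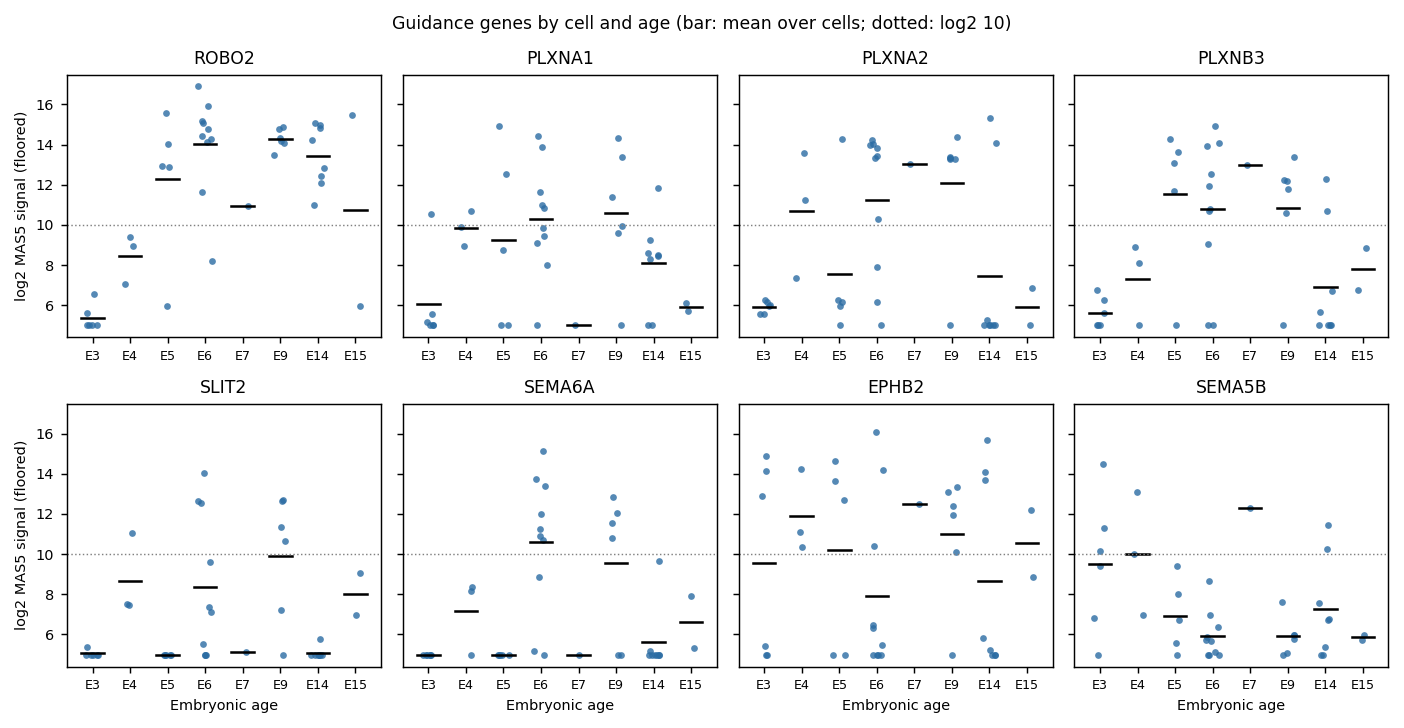
Log2 MAS5 signal of 8 guidance genes (y axis) in each cell by embryonic age (x axis), with 1 point per cell and a bar at the mean over cells. ROBO2 is at or near the floor in the 6 E3 cells and strong in 8 of 8 E14 cells, while SEMA6A and SLIT2 are strong in 0 of 8 E14 cells.

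The other receptors of this family were seldom detected. ROBO1 was detected in 2 cells, with a highest signal of 8.54 in an E15 cell. None of its 6 probe sets passed the filter for the slope, and 2 of the others were strong in 1 E15 cell each. ROBO4, known from endothelial cells, was detected in 6 cells and strong in 0. Among the ligands, SLIT2 was detected in 12 cells and strong in 8. All 5 E5 cells were at the floor for SLIT2. The E4 cells read 7.50, 11.04 and 7.45, of which only 11.04 lay above array background. At E6 SLIT2 ran from the floor through a median of 7.24 to 14.05, and at E9 from the floor through 10.98 to 12.71. At E14 its lowest value and median were at the floor and its highest was 5.77, so the E14 cells overlapped only the lowest E9 cell. SLIT1 was detected in 21 cells with a mean of 7.30 in those cells and was strong in 1, on an array of high background. SLIT3 was strong in 4 cells, of which 2 were the E15 cells, at 10.1 and 10.2, where background reached 10.03 to 10.31.

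Plexins were the family with the most strong readings per gene at E6. PLXNB3 was strong in 19 of 41 cells, PLXNA2 in 18, PLXNA1 in 13 and PLXNC1 in 10. For PLXNA2, a receptor of SEMA6A in mouse, the 6 E3 cells ran from 5.55 through a median of 6.02 to 6.25, and 0 were detected. At E6 it ran from the floor through 13.38 to 14.21, and at E9 from the floor through 13.30 to 14.37. Most cells of these ages were thus near 13 or 14 and a few were at the floor. At E14 the median was at the floor, with a highest of 15.31, and 2 of 8 cells were strong. The E4 cells read 11.24, 7.34 and 13.56, of which 7.34 lay below array background. For PLXNA2 the E5 cells read 6.28, 5.99, 14.30, 6.18 and the floor. Its second probe set was strong in 12 cells, 11 of them shared with the first. The remaining PLXNA2 probe sets were strong in 4 and 6 cells and did not show this order of ages. They were strong in 0 and 0 cells at E6, 2 and 2 at E9, and 2 and 3 at E14.

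PLXNB3, a semaphorin receptor of the B class, was read from its only probe set. It ran from the floor through a median of 5.30 to 6.74 at E3. The E5 cells read the floor, 14.27, 13.09, 11.67 and 13.61. The gene was strong in 4 of 5 E5 cells, among them both with cell cycle transcripts, and in the E7 cell at 13.00. At E6 it ran from the floor through 11.35 to 14.94 and at E9 from the floor through 11.98 to 13.39. The E14 median was 5.32 and the highest 12.29, so 2 of 8 cells were strong. PLXNA1 was detected in 1 of 6 E3 cells, 9 of 10 E6 cells, 5 of 6 E9 cells and 6 of 8 E14 cells. Its medians were 5.09, 10.35, 10.67 and 8.47 in that order. PLXNC1, a receptor of SEMA7A, was strong in 4 of 10 E6 cells and 1 of 8 E14 cells, and its ligand SEMA7A was strong in 1 of 41 cells. A second SEMA7A probe set was strong in 4 others, 1 of E3, 1 of E5 and 2 of E14. PLXND1, known from vessels and as a receptor of SEMA3E, was strong in 4 cells, at up to 14.75 in E14 replicate 4. PLXNA4 was strong in E9 replicate 6, at 10.29, and its second probe set was strong in 5 cells of E6, E9, E14 and E15, that one included. PLXNB2 was strong in 0 cells by the probe set used and in 7 by another, of which 4 were from E6, 2 from E9 and 1 from E15. The probe sets of both genes thus disagreed.

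Among the semaphorins, SEMA6A, a transmembrane ligand of class A plexins, was strong at E6 and E9 and at no other age. The 6 E3 cells, the 5 E5 cells and the E7 cell were all at the floor. The E4 cells read 8.18, the floor and 8.37, below array backgrounds of 9.49, 8.02 and 9.43. At E6 SEMA6A ran from the floor through a median of 11.08 to 15.14, with 7 of 10 cells strong, and at E9 from the floor through 11.18 to 12.85, with 4 of 6 strong. At E14 its lowest value and median were at the floor and its highest was 9.68, and at E15 it read 5.32 and 7.93. This rests on 1 probe set. The other 3 SEMA6A probe sets were strong in 1, 0 and 0 cells, and the 1 was not a cell in which the first was strong.

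SEMA5B, a transmembrane semaphorin that keeps retinal neurites in the inner retina of mouse, had the opposite order of ages. At E3 it ran from the floor through a median of 9.78 to 14.50, with 3 of 6 cells strong. For SEMA5B the E4 cells read 9.99, 6.99 and 13.07, of which 6.99 lay below array background. At E6 it ran from the floor through 5.72 to 8.66, at E9 from the floor through 5.87 to 7.64, and 0 cells of either age were strong. The E7 cell read 12.29, and at E14 2 of 8 cells were strong, with a highest of 11.46. This order too rests on 1 of 5 probe sets. The others were strong in 0, 0, 1 and 0 cells, the 1 being an E15 cell. SEMA6D was strong in 15 cells spread over E3 to E14, among them 2 of 6 E3 cells, 4 of 10 E6 cells, 2 of 6 E9 cells and 4 of 8 E14 cells. The other SEMA6D probe sets were strong in 2, 5 and 2 cells, and each was detected in 0 of 6 E3 cells. SEMA4B was strong in 5 cells, of which 2 were E3 cells, at up to 12.77. Most of the secreted class was dim. SEMA3A, the ligand of NRP1, was detected in 5 cells and strong in 1, E9 replicate 4, at 12.48. SEMA3DL, annotated as SEMA3D-like, was detected in 37 cells, yet at a mean of 8.52 in those cells and strong in 5. SEMA3D was detected in 14 cells and SEMA3G in 20, and each was strong in 1. A second SEMA3D probe set was strong in 6 cells, of which 3 were from E6 and 1 each from E3, E5 and E9. SEMA4D was detected in 3 cells and strong in 1. SEMA3B, SEMA3E, SEMA3F and SEMA6B were strong in 0 cells, and SEMA3C, SEMA4G and SEMA5A in 1 each. SEMA5A was detected in 17 cells, and in 19 by a second probe set, which was strong in 1 other cell.

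The neuropilins, co-receptors of the secreted class, gave no strong reading outside E15. NRP1 was detected in 3 cells, with a highest of 9.91, and in 8 by its other probe set, which was also strong in 0. NRP2 was detected in 32 cells at a mean of 7.67 in those cells. Its 2 strong cells were both from E15, at 10.83 and 10.71, on arrays whose background reached 10.03 and 10.31.

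**Figure D2:**
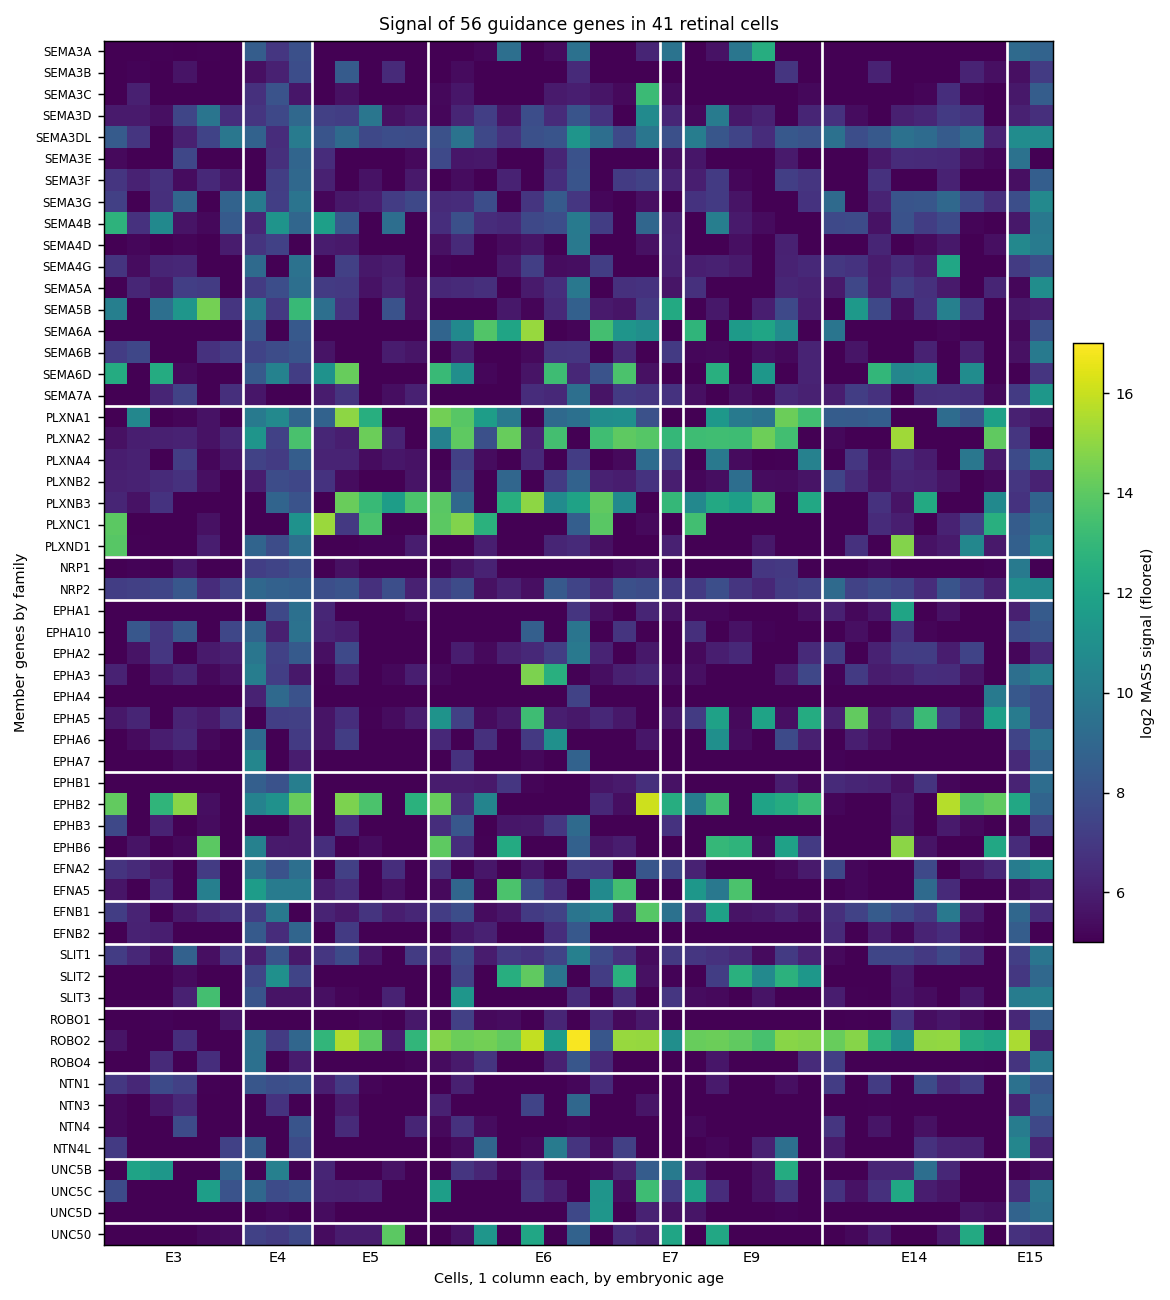
Log2 MAS5 signal (colour) of the 56 genes (rows, by family) in 41 cells (columns, by embryonic age, white lines between ages). ROBO2 forms an almost unbroken bright row from E5 to E14, the plexins and EPHB2 are bright in some cells of most ages, and NRP1, the netrins and most EPHA receptors are dark.

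Of the EPH receptors, EPHB2, which marks ventral retina in chick, was strong wherever it was detected, in 22 of 41 cells. The E3 cells ran from the floor through a median of 9.16 to 14.89 and the E4 cells read 10.33, 11.08 and 14.23. The E5 cells read the floor, 14.64, 13.62, the floor and 12.67. At E6 it ran from the floor through 5.89 to 16.08, with 3 of 10 cells strong, at E9 from the floor through 12.16 to 13.33, with 5 of 6, and at E14 from the floor through 5.52 to 15.68, with 3 of 8. Strong cells and cells near the floor stood side by side at each age with 5 or more cells. The other 2 EPHB2 probe sets were strong in 0 cells. EPHB6, a family member without kinase activity, was strong in 9 cells, at up to 14.90 in E14 replicate 4. EPHB3 was detected in 5 cells and EPHB1 in 4.

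EPHA5 was strong in 8 cells, all of E6 (2 of 10), E9 (3 of 6) and E14 (3 of 8). At E3 it ran from the floor through a median of 6.03 to 6.85 and at E14 from 5.70 through 6.70 to 14.11, so most E14 cells were as low as E3 cells. The other EPHA5 probe set was strong in 0 cells and detected in 2, of which 1 was shared. EPHA3, a receptor graded across the chick retina, was strong in 4 cells, of which E6 replicate 5 was highest at 14.64. EPHA2 was detected in 11 cells and strong in 0. EPHA4, EPHA7 and EPHA1 were detected in 2, 1 and 2 cells. EPHA10 was strong in 0 cells. EPHA6 was strong in 2 cells by the probe set used, and another of its 4 was strong in 8, of which 2 were from E6, 2 from E9 and 4 of 8 from E14. The sets shared 1 strong cell.

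Of the ephrins, EFNA5 was strong in 7 cells. The E4 cells read 11.64, 9.99 and 9.98, E6 ran from the floor through a median of 7.16 to 13.62, E9 from the floor through 7.40 to 13.59 and E14 from the floor to 9.13, with a median at the floor. The other EFNA5 probe sets were strong in 4, 2, 0 and 0 cells, of which 3 and 2 were shared for the first 2 sets. EFNA2 was detected in 16 cells, and its 2 strong cells were the E15 cells. EFNB1 was detected in 21 cells and strong in 3, at up to 13.82 in E6 replicate 10. Its second probe set was strong in 9 cells, 1 of them shared with the first. EFNB2 was detected in 3 cells. Netrins were low throughout, with NTN1 detected in 9 cells and strong in 0. NTN3 was detected in 1 cell, and NTN4 and NTN4L were each strong in 1, the same E15 cell. Of the UNC5 receptors, UNC5C was strong in 6 cells of E3, E6, E9 and E14, at up to 13.29, and UNC5B in 4, of which 2 were E3 cells. A second UNC5B probe set was strong in 7 cells, 0 of them from E3 and 2 shared with the first. UNC5D was detected in E6 replicate 8 alone, at 11.30. UNC50 was strong in 6 cells.

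**Figure D3:**
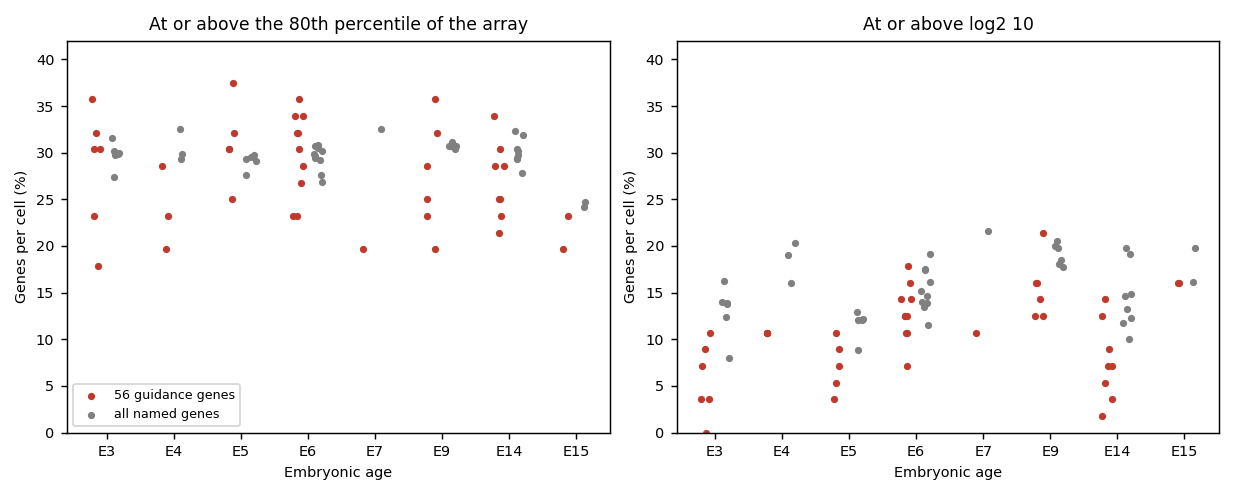
Share of genes per cell (y axis, %) at or above the 80th percentile of the array (left) and at or above log2 10 (right) by embryonic age (x axis), with 1 red point per cell for the 56 guidance genes and 1 grey point for all named genes. The red points spread more widely, but a share over 56 genes varies more by set size alone, so the spreads are not compared. The strong share of the guidance genes is the higher in 5 of 41 cells.

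In all, 15 of the 56 genes were strong in no cell, 16 were detected in 5 cells or fewer, 17 were strong in 5 or more cells and 9 were detected in 21 or more. Chosen by mean after the floor, the probe sets gave 13, 15, 22 and 8 genes in that order, and 13 genes were strong in no cell by any probe set. The same counts over all named genes are not given, so whether these are particular to guidance genes was not tested. A cell detected on average 27.8% of the 56 genes, against 29.7% of all named genes, and the guidance genes had the higher share in 18 of 41 cells. At a signal of 10 or more the shares were 10.4% and 15.4%, with the guidance genes higher in 5 cells. An E3 cell had 3.17 ± 2.23 strong guidance genes (SD, n = 6) and an E5 cell 4.0 ± 1.58 (n = 5). The number was 7.20 ± 1.69 in E6 cells (SD, n = 10), 8.67 ± 1.86 in E9 cells (n = 6) and 4.25 ± 2.38 in E14 cells (n = 8). E3 ran from 0 to 6 genes, E9 from 7 to 12 and E14 from 1 to 8. The lowest E9 cell thus lay above the highest E3 cell, while E9 and E14 overlapped. Over all named genes the strong share was 13.1% for E3, 11.6% for E5, 15.3% for E6, 19.1% for E9 and 14.4% for E14. Among these ages the share was thus also highest in E9 cells. By cell it ran from 7.97% to 16.3% at E3 and from 17.7% to 20.6% at E9, and the highest E14 cell had 19.7%. Over all named genes, too, the lowest E9 cell thus lay above the highest E3 cell, while E9 and E14 overlapped. The part of this share in the counts of guidance genes was not tested. The ages with fewer than 5 cells were left out of this comparison. The E7 cell had 6 strong guidance genes and a strong share over all named genes of 21.6%, above that for E9. The E4 cells had 6 strong guidance genes each. The E15 cells had 9 each, above the E9 mean, on arrays of high background.

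Between the ages with 6 or more cells, the largest differences of means were described with no test, since each age is 1 sample. From E3 to E6, 6 of 49 guidance genes that passed the filter on low values were higher by 3 log2 units or more, 12.2%, against a background of 7.63% of all genes that passed it. ROBO2 was 8.68 log2 units higher, from a mean of 5.37 ± 0.64 (SD, n = 6) to 14.05 ± 2.46 (n = 10). SEMA6A was 5.62 higher (0 of 6 against 8 of 10 cells detected), PLXNA2 5.29 (0 of 6 against 8 of 10) and PLXNB3 5.19 (2 of 6 against 8 of 10). PLXNA1 was 4.27 higher and SLIT2 3.32. SEMA5B alone was lower, with a difference of -3.58 log2 units, or 2.04% of the 49 against a background of 4.8%. It was detected in 4 of 6 cells at E3 and 1 of 10 at E6, and it did not pass 3 units without E3 replicate 5. SLIT2 did not pass without any 1 of E6 replicates 4, 5 and 9. The same 7 genes passed without the 2 E3 cells that detect all erythroid genes, without the E6 array of high background and without E6 replicate 1. With the second brightest probe set of each gene, ROBO2 passed again, PLXNB2 joined, and SEMA6A, PLXNA1, PLXNA2 and SEMA5B did not pass. PLXNB3 and SLIT2 have 1 probe set each and allow no such check. With probe sets chosen by mean after the floor, the same 7 genes passed and PLXNB2 was added.

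Other features differed between the same cells. The actin 3′ control signal exceeded the 5′ one by 6.65 ± 1.98 log2 units at E3 (SD, n = 6) and 1.94 ± 1.55 at E6 (n = 10), a measure of how far amplification reached from the poly(A) tail. The mean of the neuron list was 5.10 to 8.57 in E3 cells and 10.49 to 12.04 in E6 cells, and that of the cell cycle list 6.82 to 12.4 and 5.50 to 7.78. The erythroid list, of 5 measured genes, had means of 5.40 to 14.9 in E3 cells and 5.29 to 6.56 in E6 cells, with HBAD strong in 3 of 6 and 0 of 10. Their part in the differences was not tested.

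From E6 to E9, EPHB2 alone was higher by 3 log2 units or more (3.08, 3 of 10 against 5 of 6 cells detected), 2.04% of the 49 against a background of 2.44%, and 0 genes were lower against 0.485%. EPHB2 was short of 3 units without the E6 array of high background, which is replicate 7, after quantile normalization and with the second probe set. It was also short without any 1 of E6 replicates 2, 4, 5, 6, 8 and 9 or of E9 replicates 2, 4, 5 and 6. From E9 to E14, 0 guidance genes were higher, against a background of 1.75%, and 4 of 49 were lower, 8.16% against a background of 6.2%. For SLIT2 the E14 mean minus the E9 mean was -4.82 log2 units, from 9.92 ± 3.14 (SD, n = 6) to 5.10 ± 0.27 (n = 8), and it was detected in 5 of 6 against 0 of 8 cells. The difference was -4.65 for PLXNA2 (5 of 6 against 2 of 8), -3.94 for PLXNB3 (5 of 6 against 3 of 8) and -3.94 for SEMA6A (4 of 6 against 1 of 8). These 4 passed whichever cell was left out, while SEMA6A did not after quantile normalization. With the second brightest probe set PLXNA2 and SEMA6A did not pass, PLXNA1 did, and PLXNB3 and SLIT2 could not be checked. All 4 are among the 6 that were higher at E6 than at E3. The same overlap over all genes is not given, so whether it is particular to guidance genes was not tested. ROBO2 differed by -0.85 between E9 and E14 and PLXNA1 by -2.49. The actin difference was 1.27 ± 0.53 at E9 (SD, n = 6) and 3.08 ± 0.80 at E14 (n = 8), and the erythroid list had means of 5.56 to 6.52 and 6.18 to 9.74, with HBAD strong in 0 of 6 and 5 of 8 cells. Their part was not tested. The 7 guidance genes that did not pass the filter differed by -1.16 to 1.06 log2 units in these steps.

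The slope per embryonic day asked which genes moved steadily over the 8 ages. With limma on the time point means, 0 guidance genes passed an adjusted p of 0.05 upward and 0 downward, against backgrounds of 0.133% and 0.0% of all 10505 genes tested, or 0.132% and 0.0% of all 24981 probe sets. At an unadjusted p under 0.05, 2 of the 49 tested were rising and 0 falling, against 4.12% and 1.83% of all genes tested. The slope of ROBO2 was 0.39 log2 units a day with a standard error of 0.17 over 8 time points, and its adjusted p in limma was 0.853. EPHA5 had 0.27 ± 0.12 (limma adjusted p = 0.823), and its other probe set did not pass the filter. Over all 102 guidance probe sets tested, 0 passed. The lowest limma adjusted p was 0.195, for the EPHA6 probe set that was strong in 8 cells (0.29 ± 0.09). Signs were mixed, with 27 positive and 22 negative slopes, and the median slope was 0.0055 against 0.0161 over all genes. Next by unadjusted p on the rising side were PLXND1 (0.13 ± 0.11), SEMA7A (0.10 ± 0.09) and SEMA4D (0.08 ± 0.09). The lowest slopes included SEMA5B (-0.15 ± 0.14), EFNA5 (-0.13 ± 0.11), SEMA4B (-0.12 ± 0.12), SEMA3D (-0.10 ± 0.10) and UNC5B (-0.09 ± 0.10). PLXNA2 and SEMA6A, by the probe sets used high at E6 and E9 and low at both ends, had slopes of -0.08 ± 0.17 and -0.05 ± 0.12. A straight line takes no account of such a middle peak.

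**Figure D4:**
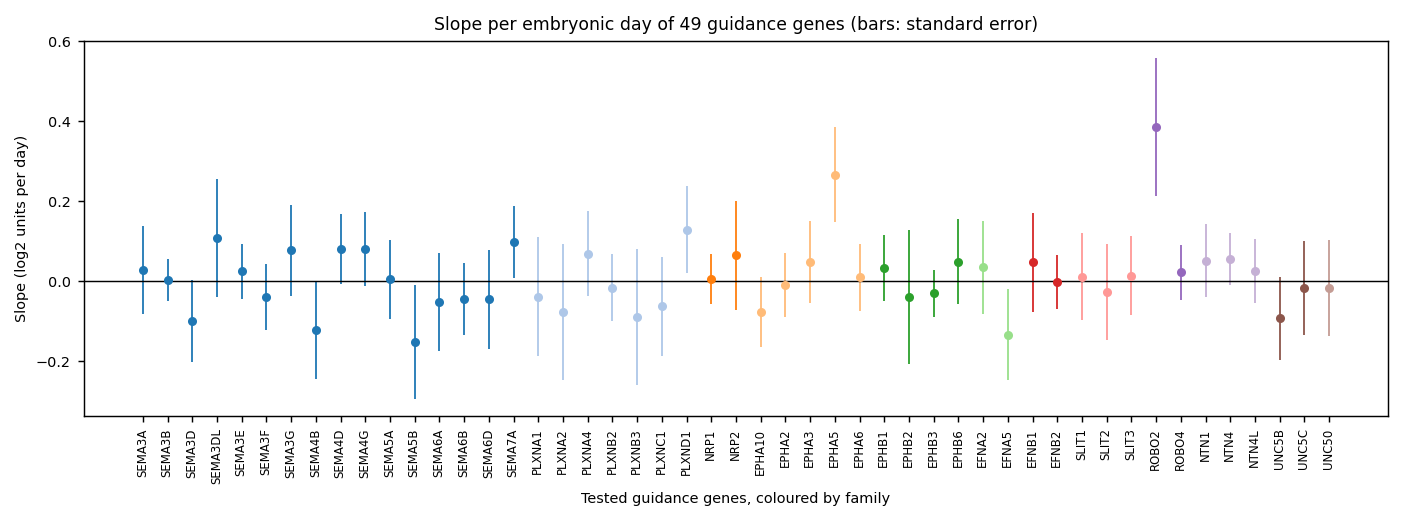
Slope of signal per embryonic day (y axis, log2 units per day) of the 49 tested guidance genes (x axis, coloured by family), with bars of 1 standard error from limma. ROBO2 (0.39) and EPHA5 (0.27) are highest, and for most genes the bar crosses or nearly reaches 0.

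Read against the neuronal transcript STMN2 in place of age, ROBO2 was strong in 27 of 29 cells with strong STMN2 and in 2 of the 12 others. Those 2 were E5 replicate 5 and the E7 cell, both with cell cycle transcripts. SEMA6A was strong in 11 of the 29 cells and 0 of the 12, and EPHA5 in 8 and 0. SEMA5B went the other way, with 2 of 29 and 5 of 12. EPHB2 was strong in 14 of 29 and 8 of 12, and EFNA5 in 5 of 29 and 2 of 12. Over all genes the shares were 15.6% and 15.0%. The 12 cells without strong STMN2 are mostly of E3 and E4, so age, array background and cell kind cannot be told apart here.

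Ligands and receptors that can bind each other were also read within the same cell. ROBO2 and SLIT2 were strong together in 3 of 10 cells at E6, 4 of 6 at E9 and 0 of 8 at E14, and 7 of the 8 cells with strong SLIT2 also had strong ROBO2. With or without SLIT2, ROBO2 was strong in 29 of 41 cells. PLXNA2 and SEMA6A, which bind in mouse, were strong together in 5 cells of E6 and 4 of E9, that is in 9 of the 11 cells with strong SEMA6A and 9 of the 18 with strong PLXNA2. SEMA6A and SLIT2, which are both ligands and not partners, shared 6 cells of their 11 and 8. EPHA5 and EFNA5 were strong in 8 and 7 cells and in 0 cells together, although 5 cells detected both at the lower threshold. PLXNA1 and SEMA5B, strong in 13 and 7 cells, were also strong together in 0. EPHB2 and EFNB1 were strong in 22 and 3 cells and in 2 together. These pairs were chosen after their values were seen. Whether they met in more or fewer cells than their single counts give was not tested.

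**Figure D5:**
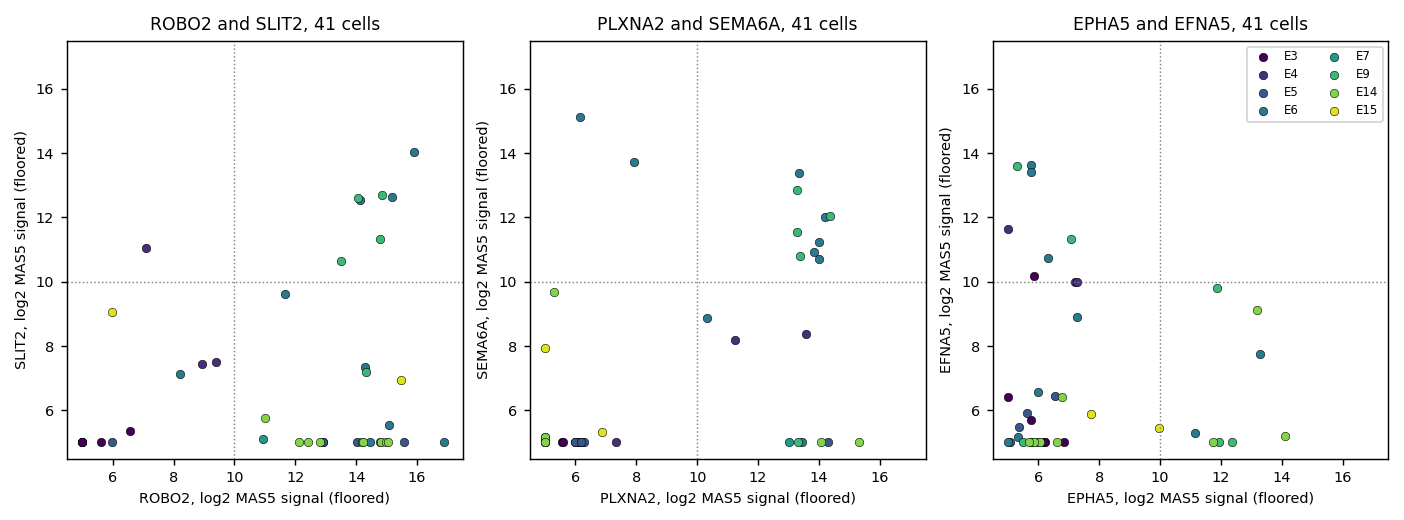
Log2 MAS5 signals of ROBO2 and SLIT2, PLXNA2 and SEMA6A, and EPHA5 and EFNA5 (x and y axes) with 1 point per cell, coloured by age, and dotted lines at log2 10. The upper right corner holds 7 cells for ROBO2 with SLIT2, 9 for PLXNA2 with SEMA6A and 0 for EPHA5 with EFNA5.

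By family, some EPHA receptor and some A-class ephrin were detected together in 18 of 41 cells, EPHB with B-class ephrins in 16, ROBO with SLIT in 25, neuropilins with class A plexins in 26 and neuropilins with class 3 semaphorins in 31. At a strong signal these counts were 2, 2, 10, 0 and 2. Of the 2 cells for EPHA with A-class ephrins, 1 was from E4 and 1 from E15. Both cells for neuropilins with class 3 semaphorins were from E15. All of these lay on arrays of high background. Counted singly at the lower threshold, EPHA receptors were detected in 31 cells, A-class ephrins in 25, EPHB receptors in 31 and B-class ephrins in 22. The count was 35 for ROBO, 30 for SLIT, 32 for neuropilins, 33 for class A plexins and 40 for class 3 semaphorins. Whether partners met in more cells than these single counts give was not tested.

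Genes that act beside these families were read in the same way. Of 52 measured genes of guidance signalling inside the cell, 47 were tested and 0 passed limma's adjusted threshold in either direction. At an unadjusted p under 0.05, 3 of the 47 were rising and 1 falling, against 4.12% and 1.83% of all genes tested. CRMP1, a cytoplasmic mediator of semaphorin 3A, had means of 9.70 for E3, 15.79 for E6, 15.08 for E9 and 15.87 for E14 and a slope of 0.39 ± 0.12. EVL, an actin regulator of the Ena/VASP family, had a slope of 0.52 ± 0.15 and was detected in 2 of 6 cells at E3 and 8 of 8 at E14. ABLIM3, an actin-binding LIM protein, had 0.41 ± 0.11. Of 46 measured genes of other cues, adhesion receptors and modulators, 39 were tested and 0 passed. At an unadjusted p under 0.05, 6 of the 39 were rising and 0 falling, against the same 4.12% and 1.83% of all genes. TENM2, a teneurin of the neuronal surface, was detected in 1 of 6 E3 cells, 9 of 10 E6 cells, 6 of 6 E9 cells and 8 of 8 E14 cells, with a slope of 0.66 ± 0.17 (limma adjusted p = 0.0688). CNTN2, an axonal contactin, was detected in 2 of 10 E6 cells, 0 of 6 E9 cells and 5 of 8 E14 cells, with a slope of 0.27 ± 0.07 (limma adjusted p = 0.0581). CNTN4 had 0.42 ± 0.13 (limma adjusted p = 0.299).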

How the data were processed

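The authors deposited log2 MAS5 signals of 38535 probe sets for 41 cells, with MAS5 named per the submitters' processing notes. Per the labels' protocols, cDNA primed with oligo dT was amplified over 35 PCR cycles, which favours 3′ ends and widens differences in yield, so a low signal does not show that a transcript was absent. Genes were named through the platform annotation, and 55 of the 56 matched RefSeq by gene ID. No sequences or coordinates are given. Arrays give no counts, so precision is limited by how many cells there are.

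The guidance genes and the other gene lists were chosen with earlier results of these data known. Signals were floored at the table's median, log2 5.0. Probe sets at or above their array's 80th percentile in at least 3 cells were tested. The 8 time point means, weighted by cells, were fitted on day with limma 3.58.1 in R 4.3.3 (eBayes with a trend, 6 residual and 78.4 prior degrees of freedom) and adjusted by Benjamini-Hochberg over all 24981. P-values measure only the spread of time points, which may be technical. The fit was tested on simulated data. Array background was the 95th percentile of 744 probe sets not designed on chicken genes. The level of log2 10 was chosen after the data were seen. Intervals are exact Clopper-Pearson and cover counting error only. Named genes were the 5 with the smallest unadjusted p in each direction, the 3 detected in most cells of each family, those past 3 log2 units and 50 points of detection in a step, and genes known from retinal axons; other members are accounted for by counts.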

Additional observations from a re-analysis of the deposited data

Results flagged for a closer look

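Within ages of 5 to 10 cells, 1 cell stood apart from the rest by Dixon's criterion in 40 of 152 groups. A group was a named gene at an age in which at least 1 cell detected it. The share of guidance genes detected at each such age was also counted as a group. All 40 were groups of a gene. Chance gives about 1 in 20 groups for normally distributed values, and signals at a floor are not such values. In 36 of the 40 the lone cell was the highest, and in 4 the lowest.

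At E3 the cell apart was highest for EFNA5 (10.17), EPHB6 (13.98) and SLIT3 (13.43), all in replicate 5, and for PLXND1 (13.89, replicate 1), PLXNA1 (10.54, replicate 2) and NTN4 (7.73, replicate 4, an erythroid-rich cell). At E5, ROBO2 was lowest in replicate 4 (5.97, next 12.90), a cell with cell cycle transcripts, which was highest for UNC50 (13.96). PLXNB3 was lowest in replicate 1 (5.0, next 11.67), a cell with strong STMN2. The highest E5 cells were those for PLXNA2 (14.3), EFNB2 (7.06), EPHA2 (7.65), EPHB6 (6.58), PLXND1 (5.94) and ROBO1 (5.79).

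At E6, replicate 7, on an array of high background, was highest for EPHA2 (9.87), SEMA4D (9.87), SEMA7A (9.4) and SLIT1 (10.22). SLIT3 stood apart in replicate 2 (11.32) and UNC5D in replicate 8 (11.3). At E9, PLXNA2 was lowest in replicate 6 (5.0, next 13.29) and PLXNB3 in replicate 5 (5.0, next 10.58). E9 replicate 2 was highest for EFNB1 (11.85), SEMA3D (9.98), SEMA4B (10.12) and UNC50 (12.2), and replicate 5 for NTN4L (9.4), SEMA5B (7.64) and UNC5B (12.38). UNC5C was highest in replicate 1 (11.87) and EPHA3 in replicate 6 (7.54). At E14 the cell apart was highest for EFNA5 (9.13) and UNC5B (9.34) in replicate 5, ROBO4 (7.22) and SEMA6A (9.68) in replicate 1, and ROBO1 (6.77) and UNC5C (12.14) in replicate 4. Replicate 7 was highest for PLXNA4 (9.78) and UNC50 (12.27).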

How the results depend on the processing

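No paired analysis was possible because the replicate numbers only count the cells of an age and name no shared embryo. In all 63 alternatives to the slope, 0 guidance genes were called. ROBO2 and EPHA5 kept a positive slope in each. Leaving aside the alternative that fitted detection in place of signal, their slopes ran from 0.08 to 0.56 and 0.08 to 0.33 per day. The lowest limma adjusted p of a named gene was then 0.187, for ROBO2 without E6. Of the 37 named genes with a slope, 11 kept its sign throughout. The median slope ran from -0.0161 to 0.0169 as single cells were left out. The share of guidance genes detected minus that of all genes was -1.51 points for E3 and 2.0 for E5. At log2 10 it became -7.40 and -4.46, and with any probe set of a gene it was 0.042 for E15. With probe sets chosen by mean after the floor, an alternative added after the data were seen, it was -0.121 for E5 and -0.401 for E6, against 0.52 for E6 before. Without single cells the share detected minus that of all genes ran from -2.63 to 0.582 for E3, -9.75 to -3.67 for E4, 0.025 to 3.54 for E5, -0.142 to 1.42 for E6, -5.01 to -1.71 for E9, -4.10 to -2.33 for E14 and -5.04 to -0.961 for E15. Genes lower at E6 than E3 numbered 2 by medians over cells (EPHB2 joining) and 0 with the second brightest probe set. Genes higher at E9 than E6 numbered 0 after quantile normalization, with the second probe set and without arrays of high background, and 4 by medians. At 2 log2 units, 1 gene was lower at E9 than E6, 1 higher at E14 than E9 and 8 lower, and with no floor 1, 1 and 7. Leaving out single cells gave 5 to 7 genes higher and 0 to 1 lower at E6 than E3, 0 to 1 in each direction at E9 against E6, and 4 to 6 lower and 0 higher at E14 than E9. Fewer cells held both partners at a stricter threshold. At the 90th percentile and at log2 10 they numbered 2 and 2 for EPHA with EFNA, 4 and 2 for EPHB with EFNB, 12 and 10 for ROBO with SLIT, 7 and 0 for neuropilins with class A plexins, and 10 and 2 for neuropilins with class 3 semaphorins. The DCC with UNC5 pair was not run. Signals of 10 at E15 are near background, which limits what E15 shows, and probe sets of a gene often disagreed: 42 of 86 further probe sets were strong in no cell.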

Other observations

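Read cell by cell, the set of strong guidance genes ranged from 0 in E3 replicate 6, which detects all measured erythroid genes, to 12 in E9 replicate 2. The latter carried ROBO2, PLXNA1, PLXNA2, PLXNB3, EPHA5, EPHA6, EPHB2, EPHB6, EFNB1, SEMA4B, SEMA6D and UNC50. In E14 replicate 1 ROBO2 alone was strong. E14 replicate 8 had 8 strong genes, among them PLXNA1, PLXNA2, PLXNB3 and PLXNC1, each of which was strong in at most 1 other E14 cell. Cells with strong STMN2 had 1 to 12 strong guidance genes (median 7, n = 29) and the others 0 to 6 (median 4.5, n = 12). Over all genes the strong shares were 15.6% and 15.0%. The 12 are mostly of E3 and E4, so age, array background and cell kind cannot be told apart. The E15 cells each had 9, of which SEMA3DL, NRP2, EFNA2 and SLIT3 were shared by both.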
